A study of Mus musculus with 21 samples.

Results

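Transcript levels of 9 genes of the heart's adrenergic signalling pathway were followed across 21 mouse heart libraries. They are the receptor genes Adrb1, Adrb3, Adra1a and Adra1b, the G protein gene Gnas, the adenylyl cyclase genes Adcy5 and Adcy6, and the receptor kinase genes Grk2 and Grk5. They were taken by gene name from a gene matrix of 19096 genes, and all 9 of the 9 names were found there. Bulk RNA was sequenced from heart tissue of male C57BL/6NJ mice, 8 to 10 weeks old at the start, in a layout of diet by vector. The groups were chow novirus (n = 4), chow Renin (n = 6), HFD novirus (n = 6) and HFD Renin (n = 5). HFD stands for food that supplied 60% of energy as fat, given for 10 weeks, and Renin is an adeno-associated virus that carries renin, given 6 weeks before collection. The series text states that mice without renin received a null vector, whereas the sample labels call them novirus. The promoter of the vector and the cells that express it are not given in the sources used here. The study set HFD Renin, its model of a type of heart failure in which ejection fraction is kept, and each hit alone against control mice.

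Noradrenaline and adrenaline act on heart muscle mainly through the beta-1 receptor. That receptor activates the stimulatory G protein Gs, whose alpha subunit is encoded by Gnas, and Gs switches on adenylyl cyclase, which makes the messenger cyclic AMP. Cyclic AMP activates protein kinase A, which phosphorylates calcium-handling and contractile proteins. Alpha-1 receptors signal through another G protein, Gq, and are linked to hypertrophic growth. G protein-coupled receptor kinases phosphorylate active receptors so that arrestins can bind and end the signal. Loss of beta-1 receptors and a rise of receptor kinases are well-known features of failing hearts with a low ejection fraction.

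Library totals ran from 18.7 to 29.3 M estimated reads, and the 4 chow novirus libraries (18.7 to 21.4 M) all lay below the other 17 (22.8 M and up). All 6 cardiomyocyte markers were detected in each group, and their summed level had a median of 60060 CPM (read counts relative to library size, scaled between libraries by TMM) in chow novirus, 48890 in chow Renin, 52940 in HFD novirus and 43850 in HFD Renin. In 5 libraries the markers of atrial muscle stood apart, with a mean log2 level of 5.25 to 6.24 against at most 2.49 in the other 16; these were chow novirus replicate 3, chow Renin replicates 1 and 3, HFD novirus replicate 3 and HFD Renin replicate 3. A score of central neuron and glia markers was 3.90 to 4.56 in chow Renin and 2.33 to 3.08 in the other groups, with no overlap. A clock score, day-phase minus night-phase genes, had a mean of -3.61 in chow novirus, -3.18 in chow Renin, -3.44 in HFD novirus and -3.03 in HFD Renin, where replicate 1 stood highest at -2.33. The part of these scores in the results was not tested except where a fit with the score is given. In bulk tissue, fewer cells of a type and less RNA per cell cannot be told apart.

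Compared per length, in TPM, the 9 genes spanned a wide range. Mean TPM over all 21 libraries was 389 for Gnas, 54.5 for Adcy6, 16.2 for Grk2, 11.2 for Adra1b, 10.4 for Adcy5, 5.99 for Adrb1, 5.32 for Grk5, 3.07 for Adra1a and 0.0617 for Adrb3. Library ranges of neighbours in this order did not overlap between Gnas and Adcy6, between Adcy6 and Grk2, between Adcy5 and Adrb1, or between Adra1a and Adrb3. The ranges overlapped between Grk2 and Adra1b, Adra1b and Adcy5, Adrb1 and Grk5, and Grk5 and Adra1a, so that the order within those pairs changed from library to library. Among the genes tested, Gnas stood at percentile 99.0 of mean TPM and Adra1a at percentile 44.7. Adra1b and Grk5 varied most in TPM, with the highest library 3.41 and 3.02 times the lowest. Gnas varied least, at 1.21 times.

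**Figure D1:**
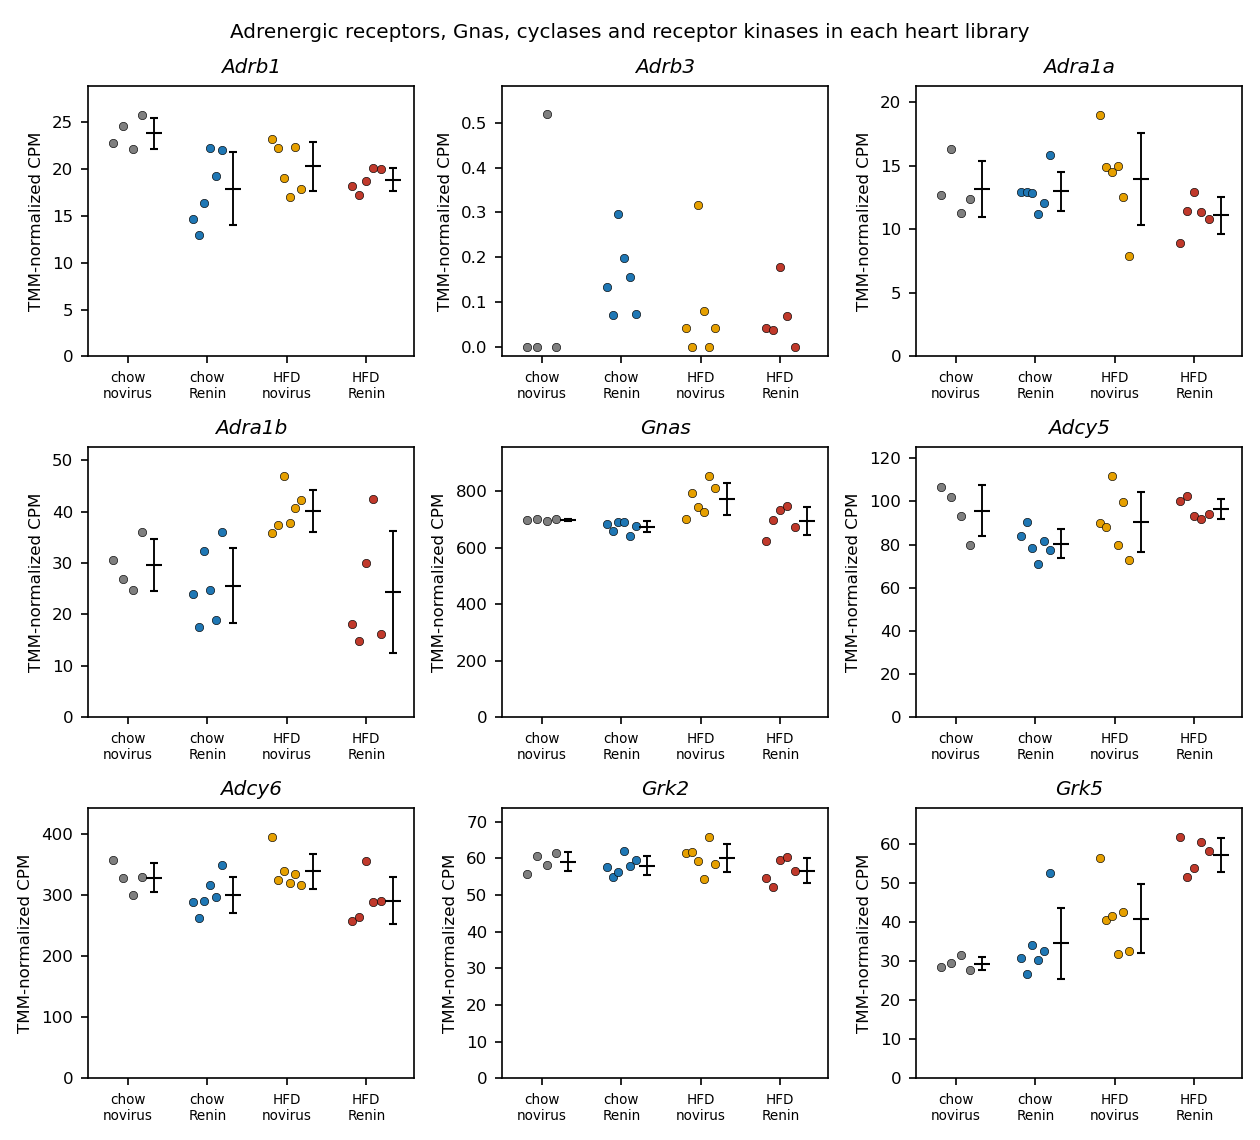
TMM-normalized CPM of the 9 genes (vertical axis, linear and starting at or near 0) in each of the 21 heart libraries by group. Points are libraries and the bars to their right the mean ± SD (not drawn for Adrb3); the 5 HFD Renin points of Grk5, 51.6 to 61.8, lie above all 4 chow novirus points, 27.6 to 31.6.

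The main change was in Grk5, the receptor kinase that also enters the nucleus and acts there on regulators of hypertrophic genes. Grk5 (chromosome 19, 60889749 to 61095968, plus strand, GRCm38) measured 28.6, 29.6, 31.6 and 27.6 CPM in the 4 chow novirus hearts. The 5 HFD Renin hearts measured 61.8, 51.6, 53.95, 60.5 and 58.2 CPM. Every heart with both hits was above every control heart. The summed level of the 6 fibroblast markers was also higher in HFD Renin, with a median of 769 CPM (681 to 1012), than in chow novirus, with a median of 502 CPM (482 to 865), and the ranges overlapped; its part in the Grk5 difference was not tested. The mean rose from 29.35 ± 1.68 (SD, n = 4) to 57.2 ± 4.32 CPM (SD, n = 5), a fold of 1.95 and a log2 fold change of 0.96 (SE 0.166), with an adjusted p of 0.00176 in edgeR's quasi-likelihood test. It was the only one of the 8 genes tested that passed in this comparison, where 8.29% of all 15216 genes tested passed. In the authors' deposited table, whose reference group is not stated, Grk5 had a log2 fold change of 0.93 and an adjusted p of 1.36e-05; Adrb3 had no adjusted p there, and those of the other genes ran from 0.216 to 0.982.

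Mean Grk5 levels with a single hit lay between those of chow novirus and HFD Renin, and neither difference from chow novirus passed. HFD novirus hearts ranged from 31.75 to 56.5 CPM with a median of 41.0, and all 6 were above all 4 chow novirus hearts, by a narrow margin for the lowest (31.75 against 31.6). The mean of 40.9 ± 8.95 CPM (SD, n = 6) was 0.48 higher on the log2 scale (SE 0.160), with an adjusted p of 0.27, so this difference did not pass. Of all genes tested, 2.42% had ranges that did not overlap in this comparison. Chow Renin hearts ranged from 26.8 to 52.6 CPM with a median of 31.7, and replicate 6 (52.6) stood apart from the other 5 (26.8 to 34.2); the log2 difference from chow novirus was 0.24 (SE 0.159, adjusted p = 0.398). Without replicate 6 that difference was 0.08 (adjusted p = 0.765), and chow Renin replicate 2 (26.8) was below every chow novirus heart. In the fit that held the central nervous score it was 1.06 (adjusted p = 0.504). The log2 difference between HFD Renin and chow Renin was 0.73 (SE 0.145, adjusted p = 0.000834), and 4 of its 5 hearts were above all 6 chow Renin hearts. HFD Renin was above HFD novirus by 0.48 (SE 0.145, adjusted p = 0.0361), and 3 of its 5 hearts were above all 6 HFD novirus hearts. The interaction (log2 change with renin under HFD less that under chow) was 0.25 for Grk5 (SE 0.214, adjusted p = 0.546), so unequal effects of renin on the 2 diets were not shown.

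The Grk5 rise in HFD Renin over chow novirus passed with any single library left out (adjusted p 0.000147 to 0.00981). With the clock score as a covariate its size was 0.92, but its adjusted p rose to 0.119; in that fit the calls over all genes fell from 1262 to 14. The difference from chow Renin went from 0.73 to 0.02 (adjusted p = 1) in a fit that held the central nervous score, a score that separates chow Renin from the other groups completely; calls over all genes fell from 3440 to 40 there. The difference from HFD novirus was the least stable. It passed in 12 of 21 fits that left out a library, and failed without HFD novirus replicate 2, 3, 4, 5 or 6 or without HFD Renin replicate 1, 2, 4 or 5, at adjusted p values of 0.0526 to 0.109; the log2 difference then lay between 0.42 and 0.52. Without the 5 libraries of high atrial markers it was 0.50 (adjusted p = 0.0975). Grk5-201 held 95.3% of Grk5 TPM on average. Zfp950 lies on the opposite strand across part of the gene, and the strand setting of the quantification is not given in the sources used here.

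Grk2, the other receptor kinase measured and the one best known for switching off beta receptors, kept nearly the same level. Its 4 chow novirus values were 55.8, 60.7, 58.1 and 61.5 CPM, and its 5 HFD Renin values were 54.5, 52.25, 59.4, 60.3 and 56.6 CPM. The ranges overlapped. Chow Renin hearts ran from 54.8 to 62.1 CPM with a median of 57.75, and HFD novirus hearts from 54.3 to 65.8 with a median of 60.35. The log2 difference between HFD Renin and chow novirus was -0.06, with a 95% interval of -0.179 to 0.0592. No comparison of Grk2 passed, and its largest log2 difference between groups was -0.09 (HFD Renin against HFD novirus, 95% interval -0.194 to 0.0206, adjusted p = 0.33). The ratio of Grk5 to Grk2, taken within each library from TPM, had a geometric mean of 0.219 in chow novirus, 0.276 in chow Renin, 0.309 in HFD novirus and 0.490 in HFD Renin. Chow novirus libraries covered 0.202 to 0.238 and HFD Renin libraries 0.412 to 0.651. Over all 21 libraries Grk2 was the more abundant transcript of the pair per length in every heart.

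**Figure D2:**
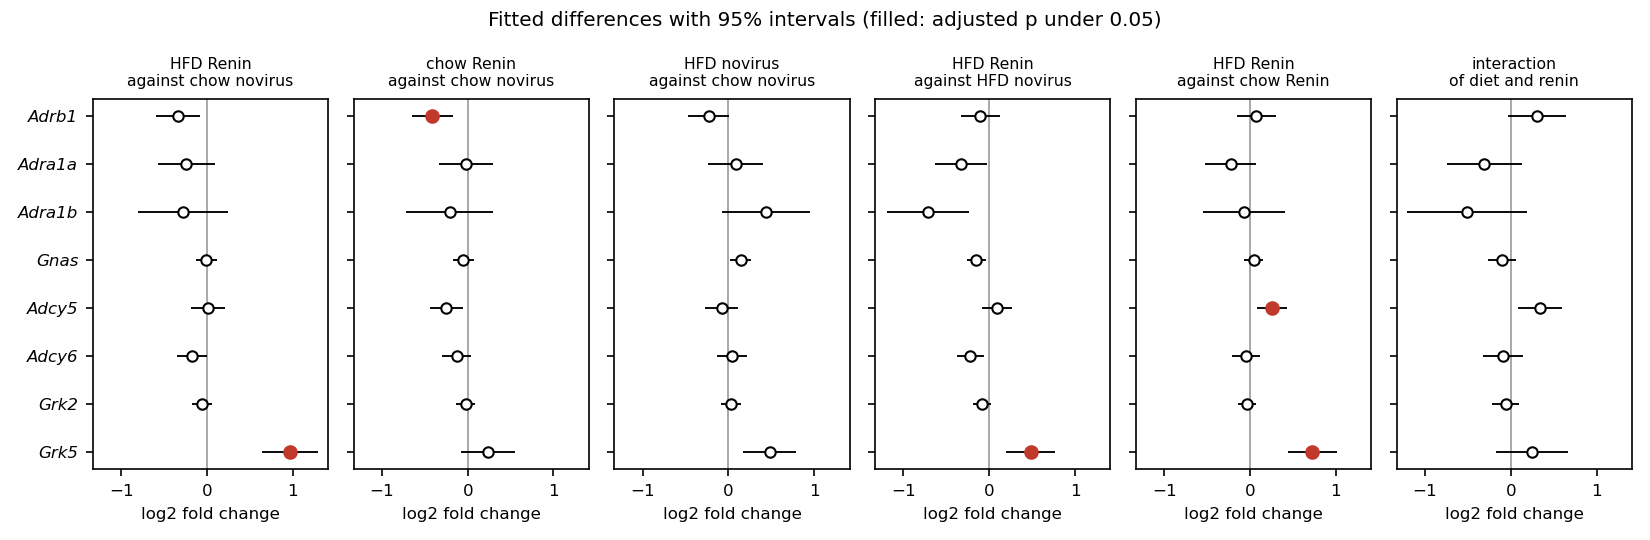
Log2 fold change (horizontal axis) of the 8 genes tested, with 95% intervals, in the 5 pairwise comparisons and the interaction of diet and renin. Filled red points passed at an adjusted p under 0.05; Grk5 is filled in 3 panels, Adrb1 in the panel of chow Renin against chow novirus and Adcy5 in the panel of HFD Renin against chow Renin.

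Adrb1 encodes the beta-1 receptor, the main catecholamine receptor of the cardiomyocyte (chromosome 19, 56722199 to 56733113, plus strand). It measured 22.8, 24.6, 22.2 and 25.8 CPM in chow novirus. Chow Renin hearts measured from 12.9 to 22.2 CPM with a median of 17.8. Of these 6 hearts, 5 were below every chow novirus heart, and the highest (replicate 4) overlapped them. The mean fell from 23.8 ± 1.67 (SD, n = 4) to 17.9 ± 3.88 CPM (SD, n = 6), a log2 fold change of -0.41 (SE 0.124, adjusted p = 0.0269). It was the only one of the 8 genes tested that passed, in a comparison where 13.5% of all genes did.

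In HFD Renin the Adrb1 values were 18.2, 17.3, 18.7, 20.1 and 20.05 CPM, all below the chow novirus values. The log2 difference from chow novirus was -0.34 (SE 0.129) with an adjusted p of 0.108, so it did not pass, and 10.0% of all genes tested had ranges that did not overlap in this comparison. With only the libraries of these groups in the fit, the difference of -0.34 had an adjusted p of 0.0268. HFD novirus hearts ran from 17.05 to 23.2 CPM with a median of 20.6 (log2 difference from chow novirus -0.23, SE 0.124, adjusted p = 0.507). All 3 groups with a hit therefore had lower means than the control group, and only that of chow Renin passed. HFD Renin and chow Renin differed by 0.07 (95% interval -0.153 to 0.303), and the interaction was 0.31 (SE 0.170, adjusted p = 0.295).

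The Adrb1 call in chow Renin was not stable. It was lost without chow novirus replicate 1, 2 or 4 and without chow Renin replicate 1, 2 or 3 (adjusted p 0.0563 to 0.0928, log2 fold change -0.43 to -0.33), without the 5 libraries of high atrial markers (-0.34, adjusted p = 0.205), with only these groups in the fit (-0.40, adjusted p = 0.0939), with the clock score (-0.37, adjusted p = 0.138) and on TPM (-0.26, adjusted p = 0.188). In a fit that held the central nervous score the sign turned (0.35, adjusted p = 0.843), and calls over all genes fell from 2048 to 36. Across the 21 libraries the Pearson r of Adrb1 with the central nervous score was -0.569, and -0.479 after group means were taken out; these libraries share their groups and their scaling, and no p is given.

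Adrb3, the beta-3 receptor gene, best known from fat cells and from nitric oxide signalling in the heart (chromosome 8, 27225776 to 27250616, minus strand), was barely detected. It had 56 reads in all 21 libraries together, at least 1 in 15 libraries and at most 10 in any. It was the only gene of the 9 that did not pass the filter on low counts, so no difference was tested. In chow novirus it had 0 reads in 3 hearts and 10 in replicate 3 (0.519 CPM). The 5 libraries with high atrial markers held 35 of the 56 reads, with 4 to 10 each, and the other 16 libraries held 21, with 0 to 5 each. The same 5 libraries also had the highest adipocyte scores, 0.137 to 1.60 against at most -0.41 in the other 16. Chow novirus replicate 3 stood highest. The summed level of the 6 adipocyte markers reached 29.9 CPM in chow novirus against at most 10.05 CPM in the other groups. Atrial and fat tissue therefore cannot be told apart here, and their part in the Adrb3 reads was not tested. In the 6 libraries at 0, a level of up to 0.105 to 0.167 CPM is allowed by the limit of 3 reads, counting error only.

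The alpha-1 receptors gave wider spreads. Adra1b (chromosome 11, 43774606 to 43901210, minus strand) measured 30.7, 26.8, 24.7 and 36.1 CPM in chow novirus and 18.2, 14.8, 30.0, 42.55 and 16.25 CPM in HFD Renin. In HFD Renin 3 hearts were below every chow novirus heart and replicate 4 was above all of them, and the ranges overlapped. HFD novirus hearts ran from 35.75 to 46.9 CPM with a median of 39.3, and 5 of 6 were above every chow novirus heart. Chow Renin hearts ran from 17.6 to 36.05 CPM with a median of 24.4. The widest gap was between HFD Renin and HFD novirus, with means of 24.35 ± 11.8 (SD, n = 5) and 40.1 ± 4.09 CPM (SD, n = 6). The log2 difference was -0.72 (SE 0.244), 4 of 5 HFD Renin hearts were below all 6 HFD novirus hearts, and the adjusted p of 0.0647 missed the threshold. Without HFD Renin replicate 4 the difference was -1.02 (adjusted p = 0.00338), and DESeq2 gave -0.72 with an adjusted p of 0.0292 on all libraries. With the replicate block in edgeR it was -0.74 (adjusted p = 0.0342). These were the only 3 of 32 alternatives that passed. The other 20 fits that left out a library did not pass, with differences down to -0.58 and adjusted p up to 0.179, and with the clock score the difference was -0.36 (adjusted p = 0.653). The Pearson r of Adra1b with the clock score was -0.644 over the 21 libraries.

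Adra1a (chromosome 14, 66635251 to 66771168, plus strand), whose product is the alpha-1A receptor, was the least abundant of the 8 genes tested. It measured 12.7, 16.3, 11.3 and 12.4 CPM in chow novirus and 8.93, 11.5, 12.9, 11.4 and 10.8 CPM in HFD Renin, with overlap. Chow Renin ran from 11.2 to 15.8 CPM (median 12.9) and HFD novirus from 7.89 to 19.0 (median 14.7), the widest range of the groups. No comparison passed. The largest log2 difference was -0.33 in HFD Renin against HFD novirus (SE 0.152, adjusted p = 0.168), and without HFD novirus replicate 6, the lowest heart of that group, it was -0.45 (adjusted p = 0.0196). That was the only 1 of 21 such fits that passed; the others reached -0.22 and an adjusted p of 0.371, and on TPM the difference was -0.14 (adjusted p = 0.492). Per length, the ratio of Adra1a to Adra1b ranged from 0.136 to 0.547 over all libraries, so that Adra1b was the more abundant of the alpha-1 pair in every heart. Adrb1 was above Adra1a in every heart, by 1.23 to 2.94 times in TPM.

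Gnas (chromosome 2, 174284320 to 174346744, plus strand) is a gene with several alternative first exons, one of which makes the Gs alpha subunit while others make the proteins NESP55 and XL alpha s or a transcript from exon 1A. Transcripts that begin at the Gs alpha exon held between 97.4% and 98.6% of Gnas TPM in every library (median 98.0%). Those of exon 1A held 1.02% to 1.90%, those of the XL alpha s exon at most 0.0236%, and those of the NESP55 exon at most 0.149%. The 150 bases before 3 starts that RefSeq lists are shown because the share of transcripts differed so widely between these first exons. They are from RefSeq on GRCm38.p6, plus strand, at chr2:174329856-174330005, chr2:174327599-174327748 and chr2:174284170-174284319 in that order. Capitals mark the GC box GGGCGG and the TATA box TATAAA, searched on both strands, so that CCGCCC and TTTATA are the same words read from the other strand.
Gs alpha start: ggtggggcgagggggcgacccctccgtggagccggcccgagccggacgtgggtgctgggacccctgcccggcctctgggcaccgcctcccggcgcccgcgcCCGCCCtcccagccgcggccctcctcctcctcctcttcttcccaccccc
exon 1A start: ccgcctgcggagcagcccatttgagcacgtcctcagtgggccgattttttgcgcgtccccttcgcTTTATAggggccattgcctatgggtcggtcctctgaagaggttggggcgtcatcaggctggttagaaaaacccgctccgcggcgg
Nesp start: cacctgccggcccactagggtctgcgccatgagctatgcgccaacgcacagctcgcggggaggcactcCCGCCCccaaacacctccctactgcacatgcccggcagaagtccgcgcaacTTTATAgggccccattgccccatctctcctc
The exon 1A window ends at a RefSeq start and lies inside Gnas-212, which begins upstream of it at 174327570 in GENCODE and was the largest exon 1A transcript (0.71% of Gnas TPM). The window before the Gs alpha start held a GC box and no TATA box, and the exon 1A window held a TATA box and no GC box. The Nesp window, with almost no transcript in these hearts, held both. Over all 32817 promoter windows of 300 bases, 35.6% hold a GC box and 13.6% a TATA box, and these matches describe letters only. Neither the cyclic AMP response element TGACGTCA (1.79% of all windows) nor the E box CACGTG (7.15%) was found in any of the 9 windows of 300 bases listed for Adrb1, Adra1b, Gnas, Adcy5 and Grk5.

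Gs alpha itself exists as a long and a short form, which differ by an exon of 45 bases at chr2:174336747-174336791. It is shown in capitals within the long transcript Gnas-208, above the same junction in the short transcript Gnas-206, in sequences of GENCODE M21 on GRCm38.
Gnas-208: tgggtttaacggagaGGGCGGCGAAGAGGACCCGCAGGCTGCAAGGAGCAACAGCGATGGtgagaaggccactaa
Gnas-206: tgggtttaacggagatgagaaggccactaa
Among full-length Gs alpha transcripts, those with the exon held 37.9%, 36.2%, 39.5% and 41.3% of TPM in chow novirus and 44.7%, 43.4%, 40.0%, 38.0% and 41.0% in HFD Renin. Chow Renin ran from 40.1% to 42.8% (median 41.3%) and HFD novirus from 34.8% to 41.1% (median 39.6%). Group means were 38.7% in chow novirus, 38.4% in HFD novirus and 41.4% in both chow Renin and HFD Renin. The ranges of all 4 groups overlapped, around a mean of 40.0% ± 2.55 (SD, n = 21). The split between overlapping transcripts is an estimate of the quantifier, and no test was made of it.

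**Figure D3:**
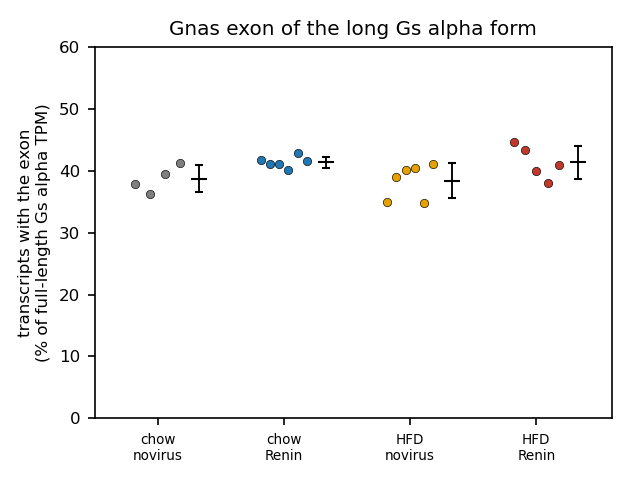
Share of full-length Gs alpha TPM in transcripts that hold the exon of 45 bases (vertical axis, percent) in each library by group, with mean ± SD beside the points. All libraries lie between 34.8% and 44.7%, and the groups overlap.

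The level of Gnas differed little. It measured 698, 701, 694 and 702 CPM in chow novirus, and 624, 696, 733, 747 and 671 CPM in HFD Renin, on both sides of the controls. All 6 chow Renin hearts (642 to 692 CPM, median 681) were below all chow novirus hearts, but by a log2 difference of only -0.05 (SE 0.0614, adjusted p = 0.674), and 15.1% of all genes had ranges apart in that comparison. In TPM the order of these means was the other way round, 400.1 in chow Renin and 383 in chow novirus, so no direction can be given. In CPM, though not in TPM (mean 389.2), HFD novirus was the highest group, from 702 to 853 CPM (median 767), and its log2 difference from chow novirus was 0.14 (SE 0.0617, adjusted p = 0.402). The log2 difference of HFD Renin from HFD novirus was -0.15 (SE 0.0578, adjusted p = 0.0916); DESeq2 gave -0.16 with an adjusted p of 0.0268. Leaving out HFD novirus replicate 1 or HFD Renin replicate 4 gave -0.18 in each case (adjusted p 0.0455 and 0.0489); the other such fits did not pass (as little as -0.12, adjusted p up to 0.244), and on TPM it was -0.03 (adjusted p = 0.818). Nespas and Gm20721 lie on the opposite strand within the bounds of Gnas.

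Of the cyclases, Adcy6 (chromosome 15, 98589973 to 98610076, minus strand) was the more abundant. Adcy5 and Adcy6 make the calcium-inhibited enzymes that supply most cyclic AMP in adult heart muscle. Per length, Adcy5 stood at 0.149 to 0.255 of Adcy6 in the 21 libraries, with a geometric mean of 0.192 in chow novirus and 0.218 in HFD Renin. Of Adcy6 TPM, 44.3% on average belonged to the coding transcript Adcy6-201 and 31.0% to Adcy6-202, annotated as a retained intron, so that part of the summed level is not coding RNA. Adcy5-201 held 99.8% of Adcy5.

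Adcy5 (chromosome 16, 35154877 to 35305738, plus strand) measured 107, 102, 93.4 and 80.0 CPM in chow novirus and 100.2, 102, 93.3, 91.9 and 94.1 in HFD Renin. The means were nearly equal, at 95.6 ± 11.8 (SD, n = 4) and 96.4 ± 4.63 (SD, n = 5), and the log2 difference was 0.01 with a 95% interval of -0.184 to 0.207. Chow Renin hearts were lower, from 70.85 to 90.65 CPM with a median of 80.1, and HFD novirus hearts ran from 72.7 to 112 with a median of 89.2. All 5 HFD Renin hearts were above all 6 chow Renin hearts, the log2 difference being 0.26 (SE 0.0896, adjusted p = 0.0388). Together with Grk5 this made 2 of 8 genes tested, in a comparison where 22.6% of all genes passed and 15.3% had ranges apart. The difference between chow Renin and chow novirus was -0.25 (SE 0.0956, adjusted p = 0.0918), and the interaction was 0.34 (SE 0.131, adjusted p = 0.107).

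The Adcy5 call passed in 11 of 21 fits that left out a library. It was lost without chow novirus replicate 1 or 2, chow Renin replicate 1, 3, 4, 5 or 6, or HFD Renin replicate 1, 2 or 5 (adjusted p 0.0538 to 0.138, log2 difference 0.22 to 0.27), and also on TPM (0.14, adjusted p = 0.40), with upper-quartile factors (0.20, adjusted p = 0.108), without a low-count filter (adjusted p = 0.0639), with the clock score (adjusted p = 0.0724) or the central nervous score (adjusted p = 1), with thinned libraries (adjusted p = 0.0698) and without the libraries of high atrial markers (adjusted p = 0.121). Without chow novirus replicate 4, the lowest Adcy5 library of its group, the fall in chow Renin passed at -0.32 (adjusted p = 0.0336).

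Adcy6 measured 357, 328, 299 and 330.0 CPM in chow novirus and 257, 264, 356, 288 and 289 CPM in HFD Renin. In the latter, 4 hearts were below every chow novirus heart and replicate 3, a library of high atrial markers, was near the top. Chow Renin ran from 262 to 349 CPM (median 294) and HFD novirus from 317 to 395 (median 330), where replicate 1 stood apart at the top. The log2 difference of HFD Renin was -0.18 from chow novirus (SE 0.0914, adjusted p = 0.246) and -0.22 from HFD novirus (SE 0.0829, adjusted p = 0.088), and no comparison passed. Without the 5 libraries of high atrial markers the latter difference was -0.31 (adjusted p = 0.0313), and without HFD Renin replicate 3 alone it was -0.30 (adjusted p = 0.0139). The other fits that left out a library did not pass (as little as -0.17, adjusted p up to 0.238), and the difference was -0.07 on TPM (adjusted p = 0.707) and -0.10 with the clock score (adjusted p = 0.762). The Pearson r of Adcy6 with the clock score was -0.665 over 21 libraries.

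**Figure D4:**
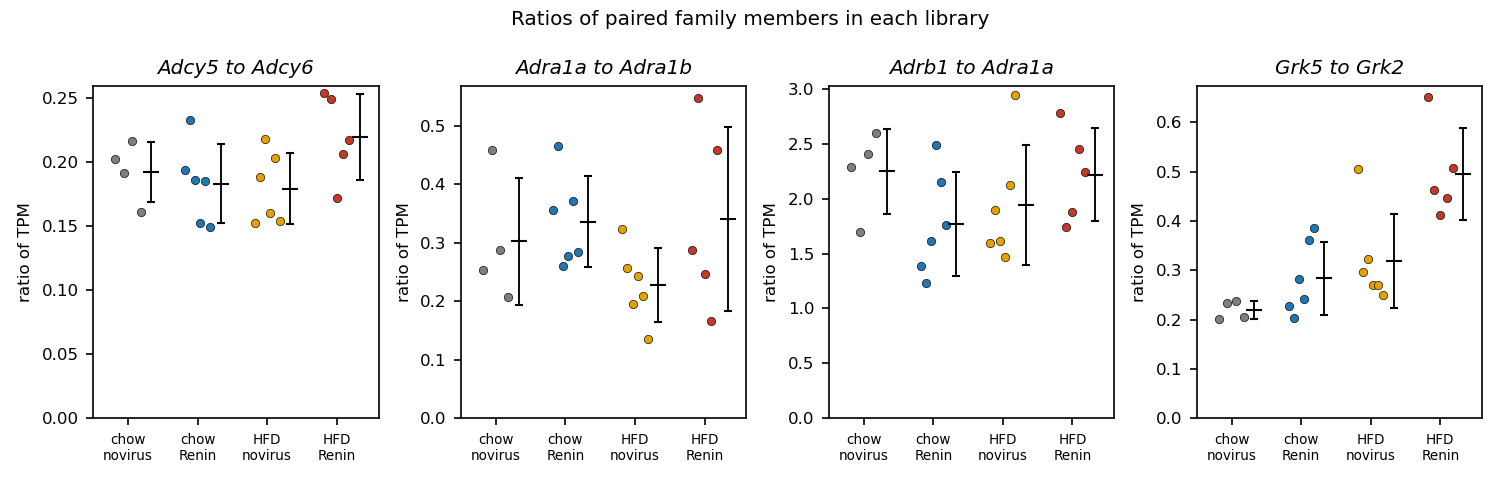
Ratios of TPM (vertical axis, linear from 0) between Adcy5 and Adcy6, Adra1a and Adra1b, Adrb1 and Adra1a, and Grk5 and Grk2 in each library by group, with arithmetic mean ± SD beside the points. The Grk5 to Grk2 ratio is 0.202 to 0.238 in chow novirus and 0.412 to 0.651 in HFD Renin, while the groups overlap in the other 3 panels.

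Counted by comparison, the genes that passed among the 8 tested were 1 higher in HFD Renin against chow novirus, 1 lower in chow Renin against chow novirus, 1 higher in HFD Renin against HFD novirus (Grk5, where 11.1% of all genes passed) and 2 higher in HFD Renin against chow Renin. In HFD novirus against chow novirus edgeR called 0, DESeq2 0 and limma 0, and 0.0657% of all genes passed; 2 of the 8 had an unadjusted p under 0.05, as did 1668 of all 15216. For the interaction edgeR called 0, DESeq2 0 and limma 0, while 10.4% of all genes passed; 1 of the 8 had an unadjusted p under 0.05, as did 3500 of all 15216. The median log2 fold change of the 8 genes was -0.12 in HFD Renin against chow novirus, beside 0.01 over all genes tested, and -0.13 in HFD Renin against HFD novirus, beside -0.01. In that last comparison 6 of the 8 had a negative sign and 5 had an unadjusted p under 0.05, Grk5 upwards and Adra1a, Adra1b, Gnas and Adcy6 downwards; 4026 of all 15216 genes had one there. Over all genes tested, the shares that passed as higher and as lower were 4.05% and 4.25% in HFD Renin against chow novirus, 10.1% and 3.36% in chow Renin against chow novirus, and 0.0131% and 0.0526% in HFD novirus against chow novirus. They were 6.07% and 5.08% in HFD Renin against HFD novirus, 9.80% and 12.8% in HFD Renin against chow Renin, and 3.14% and 7.30% for the interaction. None of the 8 genes had ranges apart in HFD Renin against HFD novirus, where 3.48% of all genes did. Comparisons that share the chow novirus or the HFD Renin libraries are not independent of each other.

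Around these genes, 10 lists with 77 other genes of the pathway were read from the same fit, and 75 were tested. In HFD Renin against chow novirus 3 passed as higher and 9 as lower. Of the 10 cyclic AMP-responsive genes 3 fell and none rose: the nuclear receptors Nr4a1 (log2 fold change -1.59, adjusted p = 0.0447) and Nr4a2 (-1.11, adjusted p = 0.00441) and the clock gene Per1 (-0.74, adjusted p = 0.0262). The median of that list was -0.50. Nr4a1 averaged 34.9 CPM in HFD novirus and 30.7 in HFD Renin, against 92.3 in chow novirus. For Nr4a2 the means were 2.815, 2.69 and 5.83 CPM in that order, and for Per1 87.8, 62.3 and 104.3. None of the 10 passed in HFD Renin against HFD novirus, where the list had a median of -0.09. Rgs2, which ends signals of Gq-coupled receptors, fell from 65.55 ± 6.93 (SD, n = 4) to 28.3 ± 10.95 CPM (SD, n = 5), by 1.21 on the log2 scale (adjusted p = 0.00537). With a single hit its mean was 45.8 ± 6.07 in chow Renin and 42.0 ± 12.3 CPM in HFD novirus (SD, n = 6 each). Neither of these passed against chow novirus. HFD Renin passed against chow Renin (-0.69, adjusted p = 0.031) but not against HFD novirus, and those ranges overlapped (15.8 to 43.5 and 26.0 to 62.2 CPM). Of the 7 protein kinase A substrates, troponin I (Tnni3, -0.48, adjusted p = 0.00267) and phospholamban (Pln, -0.32, adjusted p = 0.0213) fell, and none passed as higher. The summed level of cardiomyocyte markers given above, a list that holds Pln, was lower too, but not every member fell. Ryr2, in both lists, averaged 974 CPM in chow novirus and 997 in HFD Renin. For the substrate Mybpc3 the means were 4274 and 4577 CPM. The alpha-1D receptor gene Adra1d fell (-0.79, adjusted p = 0.0141), and so did the kinase inhibitor Pkig (-0.31, adjusted p = 0.0451) and the phosphodiesterase Pde4d (-0.43, adjusted p = 0.025). Among the genes that rose were Adcy7, a cyclase known from blood cells (1.08, adjusted p = 0.00456), and the phosphodiesterase Pde8a (0.44, adjusted p = 0.00851). None of the other receptor kinases and arrestins (5 tested) or other G protein subunits (8 tested) passed here. With a library left out, the calls for Adcy7, Pde8a, Nr4a2, Rgs2 and Tnni3 passed in all 21 fits, that for Adra1d in 20, Per1 and Pln in 16 each, Pde4d in 15, Pkig in 12 and Nr4a1 in 11. With limma on TPM 5 of the 12 calls were lost. With the clock score as a covariate 1 of the 12 calls remained, and the number over all genes fell from 1262 to 14.

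Adcy7 and Pde8a were also higher in HFD Renin against HFD novirus (log2 fold change 1.07 and 0.44; adjusted p 0.0019 and 0.00321), and Tnni3, Pln and Pkig lower (-0.53, -0.27 and -0.38; adjusted p 0.000818, 0.0286 and 0.00659). These comparisons share the HFD Renin libraries. Of the 75 genes 7 were higher and 6 lower there, among them 2 regulatory subunits of protein kinase A, Prkar1a (0.51, adjusted p = 0.0147) and Prkar2a (0.27, adjusted p = 0.0468), the myosin-binding protein gene Mybpc3 (0.43, adjusted p = 0.0497) and the G protein gene Gnao1 (0.65, adjusted p = 0.0451). Lower were Rgs6 (-0.47, adjusted p = 0.00927), Gnb2 (-0.23, adjusted p = 0.0286) and Adcy8 (-0.93, adjusted p = 0.0345). With a library left out, Prkar2a and Mybpc3 passed in only 5 of 21 fits each, Gnao1 in 7, Adcy8 in 14, Pln in 15, Gnb2 in 16 and Prkar1a in 19, while Adcy7, Pde8a, Tnni3, Pkig and Rgs6 passed in all 21. Of the 13 calls 7 were lost with only these groups in the fit and 5 with limma on TPM. With the clock score as a covariate 1 of these 13 calls remained, and the number over all genes fell from 1696 to 31. In HFD novirus against chow novirus edgeR called 0 of 75, DESeq2 1 and limma 0; 12 of the 75 had an unadjusted p under 0.05, beside 1668 of all 15216 genes.

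Chow Renin differed from chow novirus in another set, with 14 of 75 higher and 2 lower. The largest rises were in the cyclases Adcy2 (2.02, adjusted p = 2.17e-06) and Adcy1 (1.52, adjusted p = 1.2e-07), the alpha-2A receptor gene Adra2a (1.90, adjusted p = 0.0228), the kinase subunits Prkar1b (1.81, adjusted p = 1.09e-08) and Prkar2b (1.13, adjusted p = 0.0104), the phosphodiesterase Pde10a (1.36, adjusted p = 0.000857) and Rgs14 (1.05, adjusted p = 0.0156). Most of these are known for their high levels in brain. The 8 central neuron markers summed to 171 to 279 CPM in chow Renin and to 59.7 to 68.2 CPM in chow novirus, and none of the 14 named calls passed in the fit that held the central nervous score, where 36 of all genes did, down from 2048, so nothing particular to these genes can be read from it. Their levels in chow Renin differed widely, from 0.589 ± 0.266 CPM for Adra2a and 4.69 ± 0.908 CPM for Adcy2 to 23.5 ± 4.65 CPM for Prkar1b and 30.7 ± 6.27 CPM for Adcy1 (SD, n = 6). HFD Renin was lower than chow Renin in 19 of 75 and higher in 4, and the interaction passed for 13, with 10 negative. Between HFD Renin and chow Renin, Adcy2 (-1.82, adjusted p = 1.47e-06), Adcy1 (-1.45, adjusted p = 6.71e-08) and Prkar1b (-1.59, adjusted p = 1.4e-08) were among the lower genes, and 0 of the 20 calls named in that comparison passed in that fit, where 40 of all genes did.

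**Figure D5:**
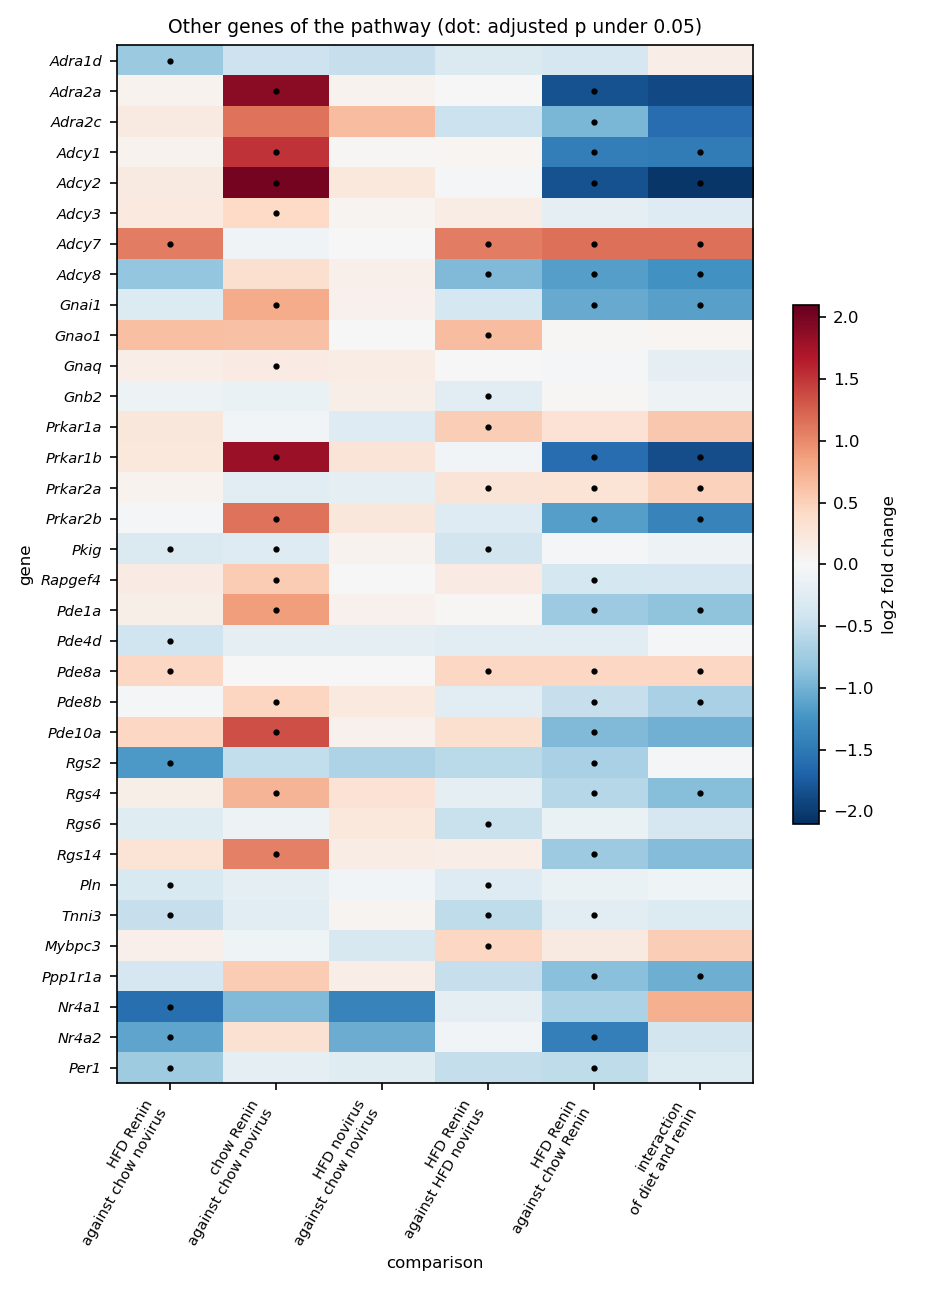
Log2 fold changes (colour, from blue for lower to red for higher) of named other pathway genes in the 6 comparisons (columns). Named genes are at most 3 called genes per list and comparison, so a gene that is not drawn may still have passed. A dot marks an adjusted p under 0.05; the chow Renin column holds Adcy1, Adcy2 and Prkar1b in red, and the HFD Renin against chow novirus column holds Rgs2, Nr4a1 and Nr4a2 in blue.

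Genes whose log2 CPM followed each of the 8 genes most closely over the 21 libraries were sought among 10061 others with a mean of at least 5 CPM. The closest pairs were Hhatl with Adra1b (Pearson r 0.94), followed by Phkg1 (0.923), and Map1lc3a with Gnas (0.928), followed by Mgat4b (0.916). Flcn (0.883) and Nr1d2 (0.852) were closest to Adcy6, Plekha1 (0.88) and Prkg1 (0.846) to Grk5, and Cds2 (0.866) and Shld1 (0.853) to Adra1a. Rcan2 (0.807) and Synpo2 (0.775) were closest to Adcy5, Sf3a2 (0.818) and Wrap73 (0.77) to Grk2, and Prox1 (0.763) and Gja1 (0.746) to Adrb1. Among the 8 genes themselves the highest r was 0.708, between Adra1b and Gnas, and 0.507 after group means were taken out. Within groups the highest was 0.734, between Adrb1 and Grk2 (0.646 over all libraries). Grk5 was close to none of the others over all libraries (r from -0.032 to 0.295), whereas within groups its r was 0.639 with Adrb1 and 0.53 with Adcy6. These values describe 21 libraries that share groups, depth and scaling, and no p is given for them.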

How the data were processed

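Heart RNA of 21 mice was sequenced, and groups were taken from the sample titles. Nothing in the labels ties mice to litters or batches. The authors deposited, per library, Salmon estimated counts and TPM per transcript (119215 transcripts), a gene table of normalized signal, and a table of 1 comparison with log2 fold changes and adjusted p-values. The submitters' processing notes list Salmon 1.10.2, DESeq2 1.40.2 and GRCm38/mm10. The deposited estimated counts were summed to genes with GENCODE M21 (97.95% of transcripts matched; 0.854% to 0.925% of reads did not) and rounded to whole numbers; the design had assumed plain counts.

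In R 4.3.3, edgeR 4.0.16 (TMM, filterByExpr, robust quasi-likelihood F test) was fitted once to all libraries with a term per group. Of 23718 genes with reads 15216 were tested, with 99.964% of reads. P-values were adjusted by Benjamini-Hochberg over all of them, and an adjusted p under 0.05 was called. Standard errors were computed as |log2 fold change| over sqrt(F), and intervals are 1.96 standard errors. The p-values measure the spread between these libraries. The test was also run on simulated counts, with the same spread for all genes and no outlying libraries or differences in tissue make-up. That run therefore says nothing about how stable the calls here are.

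The 9 genes, the pathway and marker lists and the tests were chosen with earlier results of these data known. Named pathway genes are, per list and comparison, the called genes of largest change, at most 3 (1 such gene is not reported here); genes most alike are the 2 of highest Pearson r. Scores are mean log2 CPM of marker lists. Alternatives were upper-quartile factors, no filter, DESeq2 1.42.0, limma 3.58.1 on log2(TPM + 1), a replicate block, covariates for the 3 scores, only the groups compared, CPM ratios, each library left out and, added after seeing the data, 5 libraries of high atrial score left out and libraries thinned to 18.6 M reads.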

Additional observations from a re-analysis of the deposited data

Results flagged for a closer look

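Of 52 groups of 4 to 6 values, 6 held a library far from the others; the limit used is one that chance passes in about 1 in 20 groups, a rate that does not hold for Adrb3, with few reads per heart. Adrb3 was 0.519 CPM in chow novirus replicate 3 and 0 in the other 3 hearts. It was 0.317 CPM in HFD novirus replicate 3 against at most 0.0799 in the others. Both libraries had high atrial and adipocyte markers. Adra1a was 15.8 CPM in chow Renin replicate 6, against 11.2 to 12.96 in the others. Grk5 was 52.6 CPM in the same library, against 26.8 to 34.2. Adcy6 was 394.7 CPM in HFD novirus replicate 1, against 316.7 to 339.2. The log2 ratio of Grk5 to Grk2 was -0.98 in that library, against -2.01 to -1.64.

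The effect of renin differed between the diets, by the interaction term of edgeR, for 12 named pathway genes and for none of the 8 adrenergic genes tested. The term was -2.045 for Adcy2, -1.47 for Adcy1, -1.28 for Adcy8, -1.15 for Gnai1, -1.02 for Ppp1r1a, -1.865 for Prkar1b and -1.40 for Prkar2b. It was -0.85 for Pde1a, -0.68 for Pde8b and -0.90 for Rgs4. Positive terms were found for Pde8a (0.43) and Prkar2a (0.49). None of the 12 passed in a fit that held the central nervous score, where calls over all genes fell from 1589 to 26, and all 12 passed with the clock score. With limma on TPM 4 of the 12 were lost, and without the 5 libraries of high atrial markers 3. With a library left out, Adcy8 passed in only 4 of 21 fits, Pde8a in 8, Prkar2b in 17 and Prkar2a in 18, and the other 8 genes passed in all 21.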

How the results depend on the processing

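Of 1528 values of single adrenergic genes under the alternatives, 1472 kept their side of the threshold, 42 lost a call, 13 gained one and 1 reversed; 58 uncalled values had another sign. The number of the 8 genes called in HFD Renin against chow novirus was 0 with the clock score and 2 with only these groups. In chow Renin against chow novirus it was 0 with limma, with the central nervous or clock score, with only these groups and without the 5 libraries of high atrial markers, and 0 to 1 with a library left out. In HFD Renin against HFD novirus it was 3 with DESeq2, 2 with the replicate block (Adra1b at -0.74, adjusted p = 0.0342, and Grk5) and 0 without a filter or with the central nervous or clock score, and 0 to 2 with a library left out. In HFD Renin against chow Renin it was 1 with upper-quartile factors, no filter, limma, the clock score, thinned libraries or without the high-atrial libraries, 0 with the central nervous score and 1 to 2 with a library left out. For the interaction it was 0 to 1 with a library left out, Adcy5 passing without chow novirus replicate 4 (adjusted p = 0.0435) or HFD novirus replicate 3 (0.0379). Calls over all genes fell in the same fits: with the clock score from 1262 to 14 in HFD Renin against chow novirus and from 1696 to 31 in HFD Renin against HFD novirus, and with the central nervous score from 2048 to 36 in chow Renin against chow novirus and from 3440 to 40 in HFD Renin against chow Renin. The cause was not tested.

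Of the named pathway calls, limma on TPM lost 2 of 14 in chow Renin against chow novirus and 2 of 20 in HFD Renin against chow Renin, and leaving out the high-atrial libraries lost 3 and 4 of them. These values reversed in the fit that held the central nervous score. In chow Renin against chow novirus they were 0.35 for Adrb1, -0.14 for Pde8b, -0.51 for Adcy2, -1.09 for Gnai1, -1.17 for Prkar2b and -0.0267 for Rgs4. In HFD Renin against chow Renin they were 0.0296 for Pde8b, 0.28 for Adcy2, 0.40 for Adra2c, 0.52 for Gnai1, 0.75 for Prkar2b, 0.0284 for Rgs14, 0.37 for Rgs2 and 0.0376 for Rgs4. For the interaction they were 0.63 for Adcy2, 0.84 for Gnai1 and 1.02 for Prkar2b. The replicate numbers were not taken as pairing the samples, since the labels tie them to nothing. Same-numbered libraries had correlations of -0.226 to 0.421 (median 0.0775, 28 pairs), and other pairs a median of -0.0248 (136 pairs). In 19 of 56 comparisons of a library with another group the same number gave the highest correlation. A random pick among the 4 to 6 libraries of a group would on average give fewer. Replicate 3 had high atrial markers in all 4 groups, and its part in these correlations was not tested. Whether libraries of the same number share a source was not tested either.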
